A study of Mus musculus with 12 samples.

Results

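Allele use on the X chromosome was compared between 3 MidK1 libraries and 1 library of mouse embryonic fibroblasts, MEF1. The 3 MidK1 libraries were all libraries of that name among the 12 of the series. They were taken by their labels, with earlier results of these data known. They came from fibroblasts reprogrammed with the vector SeVdp(fKOSMaB), a Sendai virus vector, and treated with 30 nM Shield1, and RNA was taken at days 35, 52 and 56. MEF1 had no vector and no agent and stands at day 0. Each day was a single library, so no difference below has a replicate check. Strain, which parent each X came from, the number of cultures or clones and any feeder cells were not given in the sources used here.

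In female mammals 1 of the X chromosomes is silenced early in development, and its genes stay silent in differentiated cells such as fibroblasts, apart from those that escape silencing. Reprogramming to a pluripotent state can reverse this, and transcripts of the silent copy are then read again. Shield1 is a small molecule that binds a destabilising domain and so protects proteins carrying that domain from degradation. Where the copies of the X differ in sequence, RNA reads over the differing base show which copy was transcribed.

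For each library the X-linked variants were tabulated, with the reads that carried the variant base and all reads covering the position. Here the reference share is the percentage of covering reads without the variant base, summed per gene over single-base sites with at least 20 reads in both tables of a pair. The MidK1 tables held 2196, 2188 and 2398 such sites at days 35, 52 and 56, in 263, 263 and 270 genes, against 1507 sites in 193 genes in MEF1. Summed coverage was 141160, 139148 and 145784 reads in MidK1, against 150198 reads in MEF1. Shared with MEF1 were 892, 978 and 947 sites in 153, 155 and 156 genes at days 35, 52 and 56. The 1051 different shared sites lay in coding sequence at 532 positions and in untranslated regions at 488. A position is listed only where variant reads were found, so a gene with reference reads alone cannot be seen, and the lowest listed variant percentage was 10.2, 11.1 and 10 in MidK1 and 10.2 in MEF1.

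A variable base is shown with its sequence for each of 6 genes with high coverage. The shares of whole genes further below are summed over all shared sites, not over the base shown alone. Each line gives 21 bases of the reference transcript of GENCODE M21 (build mm10), 5′ to 3′ on the transcript strand, with the variable base in capitals at position 11 counted from the 5′ end.
Uba1: atgaaagcggCgaggacgtcg
Tfe3: caacgttccaTgtatcgggag
Dynlt3: acatcaaccaAtggactgcaa
Lamp2: ctccaactccAactccaactc
Hdac6: gggaggacatGccccactcac
Atp6ap2: catccttgagGcaaaacaaga

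All 6 sites are in coding exons. The Uba1 site (X:20682471, plus strand) carried the synonymous change C11T, and 25.7, 46.0 and 48.6% of reads at days 35, 52 and 56 of MidK1 had the reference C, against 10% in MEF1. The Tfe3 site (X:7773640, plus strand, synonymous T11C) had reference shares of 36.0, 45.9 and 42.1% in MidK1 and 4.76% in MEF1. The Dynlt3 site (X:9657111, minus strand, synonymous A11G) had 56.2, 60 and 54.2% in MidK1 and 4.95% in MEF1. At these sites every MidK1 library lay above MEF1, and the Dynlt3 site was read mostly from the reference base.

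The Hdac6 site (X:7930484, minus strand) carried G11A, which changes an amino acid, and its reference shares were 33.0, 33.3 and 40.6% in MidK1, against 3.23% in MEF1. The Atp6ap2 site (X:12608943, plus strand, G11A, also an amino acid change) had 6.17, 17.2 and 28.6% in MidK1 and 2.17% in MEF1. The Lamp2 site (X:38431949, minus strand, synonymous A11C) lies in a tandem repeat, visible in its sequence, and had 60.9, 74.1 and 65.6% in MidK1 and 43.0% in MEF1. Lamp2 was the only one of the 6 with a high reference share in the fibroblasts at the base shown.

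A minority of genes read almost only from the variant allele in fibroblasts were read from both alleles in MidK1. Called higher in reference share were 13 of 153 genes on day 35 (8.50%), 20 of 155 on day 52 (12.9%) and 22 of 156 on day 56 (14.1%). No gene was called lower on any day (0%), but only 12, 11 and 12 genes had a reference share of at least 20% in MEF1 and so could have fallen far enough. A call needed a two-sided Fisher's exact test on variant and other reads with a Benjamini-Hochberg adjusted p under 0.05 over all genes of the pair, and a gap of 20 percentage points or more. This test on reads compares 2 libraries and not conditions. No molecular identifiers were used and 1 read can cover several sites, so the tests and the 95% Wilson intervals below cover counting error only. All 3 comparisons use the same MEF1 library, so their values are given side by side and not as independent results.

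**Figure D1:**
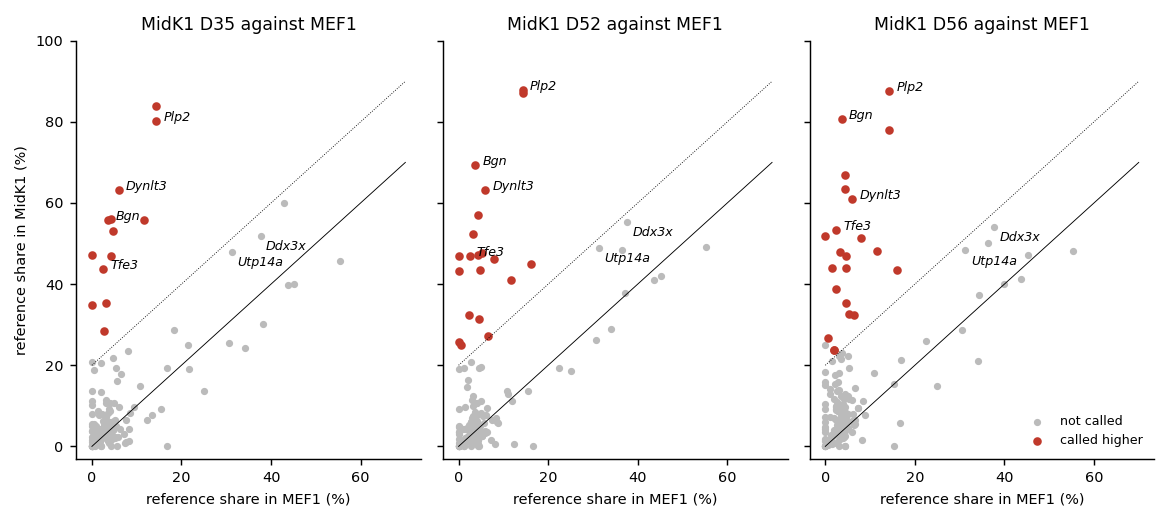
Reference share of each tested gene in MidK1 (vertical axis, %) against its share in MEF1 (horizontal axis, %), 1 panel per day. The solid line marks equal shares and the dotted line a difference of 20 points. The 13, 20 and 22 genes called higher are red and stand above the dotted line, all at the left, with MEF1 shares under 20%.

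Over all genes the median reference share was 4.59, 4.99 and 9.11% in MidK1 at days 35, 52 and 56, against 3.52, 3.69 and 3.68% in MEF1 at the same sites. The median difference was 0.987, 0.623 and 3.88 points. With the second fibroblast library, MEF2, in place of MEF1 it was 2.56, 2.98 and 6.67 points, although the MEF2 table was made with lower caller limits. All 13, 20 and 22 genes were called against MEF2 too, among 17, 22 and 29 calls. Without the limit on size, 36, 39 and 64 genes were significantly higher and 8, 6 and 2 lower. The genes not called had a median difference of 0.692, 0.243 and 2.56 points.

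The called genes had a median reference share of 53.1, 46.5 and 47.4% at days 35, 52 and 56, with ranges of 28.5 to 83.9%, 24.9 to 87.8% and 23.7 to 87.5%. The interval held equal use of both alleles, 50%, for 6, 7 and 6 of them. It lay above 50% for 4, 4 and 7 and below for 3, 9 and 9. Of the called genes with at least 2 sites, every site stood above every MEF1 site of that gene in 10 of 10, 15 of 16 and 19 of 20, and the exception was Lamp2. In RNA of a whole culture, more cells that read both alleles and more reads of the second allele per cell cannot be told apart.

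On the list of chromatin and transcription genes, Tfe3 and Hdac6 were called each day. Tfe3 encodes a basic helix-loop-helix transcription factor that acts in lysosomal gene control and in the exit of mouse embryonic stem cells from pluripotency. Its reference share was 43.7% (41.3 to 46.0), 46.9% (44.8 to 48.9) and 53.3% (51.2 to 55.5) on the 3 days, against 2.53, 2.46 and 2.46% in MEF1. It was the only tested gene of 12 on the pluripotency and germline list. The differences were 41.1, 44.4 and 50.9 points over 20, 22 and 22 sites, with an adjusted p of 5.00e-139 at day 56 by Fisher's exact test. At day 56 the single sites ranged over 37.0 to 61.5% in MidK1 and 0 to 9.09% in MEF1.

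Hdac6, a mainly cytoplasmic deacetylase that acts on tubulin, had reference shares of 28.5% (25.8 to 31.3), 32.3% (29.6 to 35.1) and 38.9% (36.3 to 41.7) at days 35, 52 and 56. MEF1 had 2.71, 2.39 and 2.49% at the same sites. All 3 intervals lay below 50%, so in each MidK1 library the variant allele of Hdac6 still gave most reads. The adjusted p at day 56 was 1.50e-80 by Fisher's exact test, for a difference of 36.4 points (33.4 to 39.3). With sites of at least 50 reads alone, the day 52 difference was 15.5 points and no longer reached 20.

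Tfe3 and Hdac6 were the called members of the chromatin and transcription list, 2 of 13, 2 of 14 and 2 of 13 tested, beside 8.50, 12.9 and 14.1% of all genes. The list's median difference was 0, −0.0665 and 1.75 points, below that of all genes on each day. The chromatin remodeller gene Atrx had 9.73, 6.58 and 9.41% in MidK1 and 9.49, 7.38 and 7.38% in MEF1. At day 35 its median site had 2.31% in MidK1 and 3.28% in MEF1, and its highest 84.8 and 79.3%. The cohesin gene Smc1a had 5.18, 3.32 and 6.27% in MidK1 and 4.19% in MEF1, and Ogt, which attaches N-acetylglucosamine to proteins, had 7.74, 13.0 and 7.97% in MidK1 and 13.4, 11 and 6.22% in MEF1. None of these was called, although the lower share of Ogt at day 35 had an adjusted p of 0.0230 by Fisher's exact test. The Ogt share of the single MEF1 library moved with the sites shared, 14, 21 and 17 on the 3 days, so that value depends on them.

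**Figure D2:**
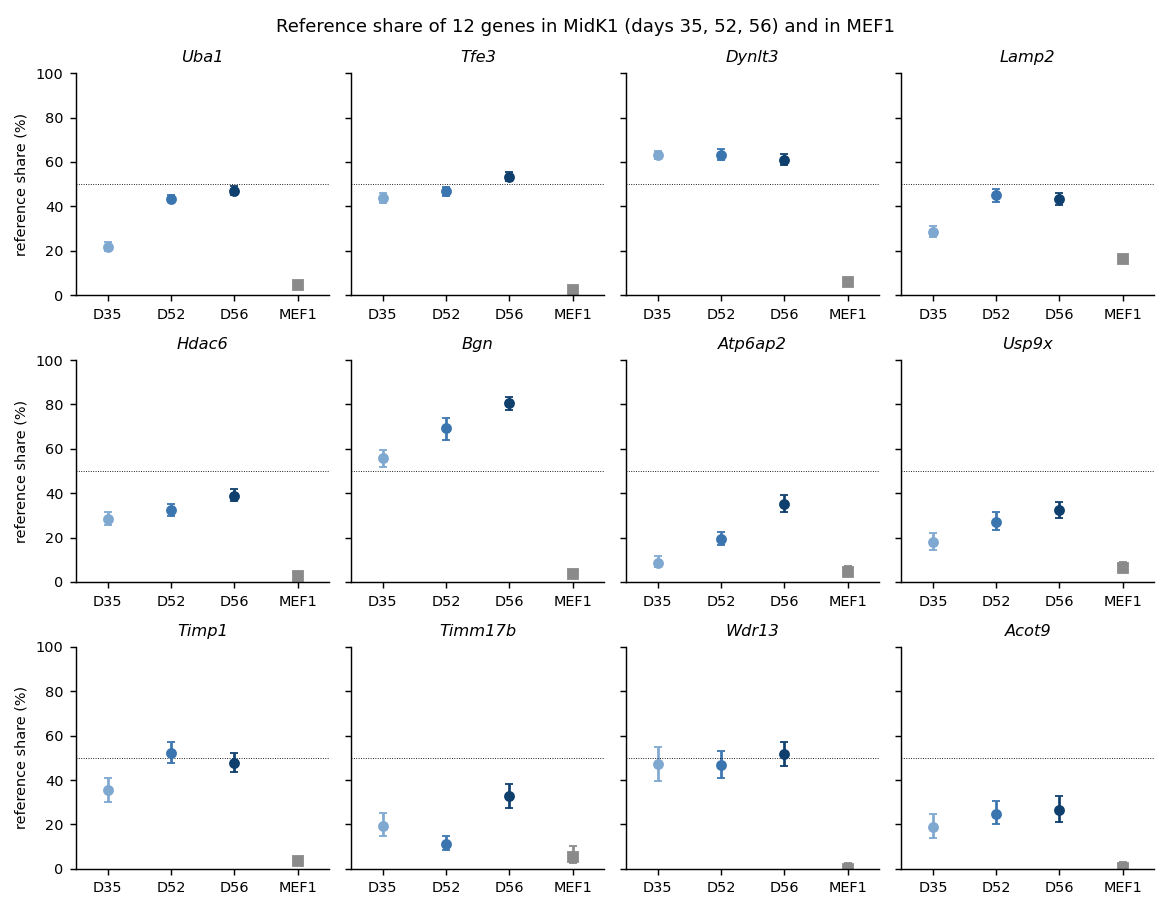
Reference share (%, with 95% Wilson intervals) of the 12 called genes covered best, in MidK1 at days 35, 52 and 56 (circles) and in MEF1 (squares, at the sites shared with day 56). The dotted line is 50%. Dynlt3 stood at 61.1 to 63.3% in MidK1, Bgn at up to 80.6%, and all MEF1 values except that of Lamp2 were under 7%.

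In the ubiquitin pathway, Uba1 and Usp9x were called at days 52 and 56. Uba1, the main enzyme that activates ubiquitin, had reference shares of 21.8% (19.8 to 24.0), 43.5% (41.8 to 45.1) and 47.0% (45.0 to 49.0) at days 35, 52 and 56. MEF1 had 4.68, 4.76 and 4.56%. At day 35 the difference was 17.1 points (14.9 to 19.4) with an adjusted p of 2.36e-54 by Fisher's exact test, so it failed only the limit on size, and against MEF2 Uba1 was called at that day too. At day 56 the difference was 42.4 points (40.2 to 44.6).

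Usp9x, a deubiquitinating enzyme, had 17.9% (14.5 to 22.0), 27.1% (23.2 to 31.4) and 32.3% (28.8 to 36.1) in MidK1, against 6.60, 6.60 and 6.36% in MEF1. Its day 52 difference of 20.5 points stood at the limit and was lost under 4 of the 14 settings. Of 21 Usp9x sites in MEF1, 8, 10 and 3 were not listed in MidK1. Otud5, another deubiquitinating enzyme, had 4.08, 14.6 and 23.7% in MidK1 and 1.94% in MEF1, and was called at day 56. Of 7 Otud5 sites in MEF1, 4, 2 and 3 were not listed in MidK1. The other tested genes of the ubiquitin list were within 4.32 points of MEF1. Huwe1, a ubiquitin ligase, had 3.06, 2.53 and 4.56% in MidK1 and 4.29, 4.34 and 4.19% in MEF1. The list, which does not hold Otud5, had 0 of 7, 2 of 7 and 2 of 7 genes called, beside 8.50, 12.9 and 14.1% of all genes. Its median difference was 0.774, 3.81 and 3.45 points, and that of all genes 0.987, 0.623 and 3.88 points.

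Of the cytoskeleton and matrix genes, Dynlt3, Timp1 and Bgn were called on every day, 3 of 8, 3 of 8 and 3 of 7 tested, beside 8.50, 12.9 and 14.1% of all genes. The list medians were 13.0, 11.8 and 15.4 points and those of all genes 0.987, 0.623 and 3.88 points. Dynlt3, a light chain of the dynein motor, had reference shares of 63.2% (61.2 to 65.1), 63.3% (60.9 to 65.7) and 61.1% (58.8 to 63.4) at days 35, 52 and 56, against 5.99% (4.74 to 7.55) in MEF1. All 3 MidK1 intervals lay above 50%, over 20 sites. The adjusted p at day 56 was 3.83e-215 by Fisher's exact test.

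Timp1, a secreted inhibitor of matrix metalloproteinases, had 35.3% (30.0 to 41.0), 52.4% (47.7 to 57.0) and 47.8% (43.6 to 52.1) in MidK1, against 3.12, 3.32 and 3.32% in MEF1. Timp1 lies within Syn1, and its 5 sites are listed under both names and were given to Timp1 by its exons. Whether the caller used the read strand is not stated, so the reads are uncertain as to gene.

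Bgn encodes biglycan, a small proteoglycan of the extracellular matrix. Its reference share was 55.7% (51.9 to 59.3), 69.3% (64.2 to 74.0) and 80.6% (77.7 to 83.2) at days 35, 52 and 56, against 3.65, 3.72 and 3.64% in MEF1. The sites lie in its untranslated regions, and of 15 in MEF1, 3, 4 and 3 were not listed in MidK1. Coverage was 681, 336 and 809 reads in MidK1, against 25805, 24317 and 28206 in MEF1. Per 100000 reads at shared sites, the variant reads were 0.0142, 0.00535 and 0.00701 times those of MEF1 and the reference reads 0.471, 0.313 and 0.770 times. Both alleles of Bgn thus had fewer reads in MidK1 than in the fibroblasts, the variant allele far fewer.

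Flna, Msn and Tmsb4x, which encode the actin cross-linker filamin, the membrane-to-actin linker moesin and an actin-binding thymosin, were not called. Flna had 4.59, 6.43 and 15.9% in MidK1 and 2.66, 3.02 and 2.79% in MEF1. Of 36 Flna sites in MEF1, 28, 13 and 21 were not listed in MidK1, so its shares rest on a part of them. Msn had 10.8, 12.4 and 18.0% in MidK1 and 3.20, 3.13 and 3.11% in MEF1. Tmsb4x had 20.6, 16.4 and 17.5% in MidK1 and 2.09, 2.11 and 2.09% in MEF1, and its short transcript has copies elsewhere in the genome. Its values rest mainly on 1 site. The only site at day 52 held 5583 MEF1 reads, against 5653 over the 4 sites at day 35. Their adjusted p at day 56, 1.76e-36, 6.68e-72 and 2.66e-72 by Fisher's exact test, passed the threshold for p, for differences of 13.1, 14.9 and 15.4 points under the limit of 20.

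Of the genes of mitochondria and metabolism, a list that also held Lamp2 and the proton pump genes, Fundc1 was called on each day and 4 others at days 52 or 56. Lamp2, a lysosomal membrane protein, had 28.6% (26.2 to 31.2), 44.9% (42.0 to 47.9) and 43.4% (40.6 to 46.2) in MidK1, against 18.4, 16.1 and 16.1% in MEF1, and was called at days 52 and 56. Its MEF1 share came largely from 5, 4 and 4 shared sites of the tandem repeat between X:38431949 and X:38431964. At day 56 the repeat sites had 65.6 to 85.7% in MidK1 and 43.0 to 75% in MEF1. With clustered sites left out, a choice made after the repeat was seen, Lamp2 had 19.7, 35.6 and 35.3% in MidK1, against 3.73, 3.77 and 3.67% in MEF1.

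Atp6ap2, an accessory subunit of the vacuolar proton pump, had 8.69% (6.51 to 11.5), 19.3% (16.5 to 22.5) and 35.3% (31.6 to 39.3) in MidK1, against 3.95, 4.61 and 4.61% in MEF1. It was called at day 56 with a difference of 30.7 points (26.1 to 35.0) and an adjusted p of 1.03e-29 by Fisher's exact test. Its sites varied widely at day 56, over 23.1 to 70.6% in MidK1 and 0 to 13.6% in MEF1. Atp6ap1, the other X-linked accessory subunit, had 19.3, 11.2 and 21.2% in MidK1 and 16.8, 12 and 16.8% in MEF1 and was not called. Its sites were uneven in both libraries. At day 35 the median site had 6.90% in MidK1 and 5.97% in MEF1, and the highest 86.8 and 85.1%.

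Timm17b, a part of the import channel of the inner mitochondrial membrane, had 19.3% (14.6 to 25), 11.3% (8.44 to 14.9) and 32.6% (27.6 to 38.0) in MidK1, against 5.30, 5.03 and 5.30% in MEF1, and was called at day 56. Acot9, a mitochondrial acyl-CoA thioesterase, had 18.8% (14 to 24.6), 24.9% (20 to 30.5) and 26.6% (21.2 to 32.7) in MidK1, against 0.472, 0.472 and 0.541% in MEF1, and was called at days 52 and 56. It was the called gene farthest along the chromosome, at X:155262443-155297654. Fundc1, a receptor for mitophagy in the outer membrane, had 47.0, 47.2 and 63.4% in MidK1 and 4.35% in MEF1 over 3 sites, called each day. The mitochondria and metabolism list had 1, 3 and 5 of 19 genes called, beside 8.50, 12.9 and 14.1% of all genes. Its medians were 1.29, 0.331 and 6.17 points, and those of all genes 0.987, 0.623 and 3.88 points. Pdha1, a subunit of pyruvate dehydrogenase with 17 sites, had 2.92, 2.66 and 6.69% in MidK1 and 3.51% in MEF1.

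**Figure D3:**
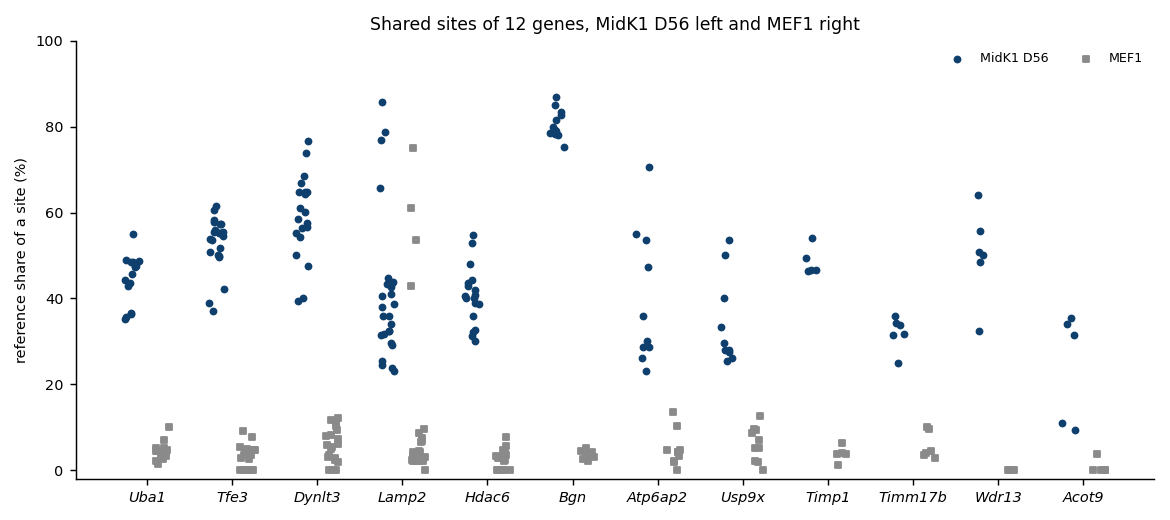
Reference share (%) of each shared site of the 12 genes at day 56, MidK1 (circles, left) and MEF1 (squares, right). In every gene but Lamp2 all MidK1 sites stood above all MEF1 sites, and the Lamp2 sites at the top of MEF1 are those of its tandem repeat.

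Wdr13, a WD-repeat protein, had 47.1% (39.4 to 54.9), 46.9% (40.9 to 53.0) and 51.8% (46.4 to 57.1) in MidK1 and no reference read among 127, 148 and 148 covering reads in MEF1, where the upper bounds of the intervals were 2.94, 2.53 and 2.53%. The poorly characterised gene 1810030O07Rik had 56.0, 57.1 and 67.0% in MidK1 and 4.29% in MEF1, over 3 sites. Gpkow, a nuclear protein with a G-patch domain, had 55.9, 40.9 and 48.2% in MidK1 and 11.6% in MEF1. Zdhhc9, a palmitoyltransferase, had 53.1, 47.7 and 44.0% in MidK1 and 4.69, 5.26 and 4.69% in MEF1. Of 6 Zdhhc9 sites in MEF1, 4, 1 and 2 were not listed in MidK1. All 4 genes were called each day.

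Praf2, a membrane protein of the PRA1 family, had 23.4, 46.2 and 51.4% in MidK1 and 7.95% in MEF1, with 1 of its 4 sites also listed under Gm45208. Gripap1, a protein of recycling endosomes, had 20.7, 31.5 and 44.0% in MidK1 and 0, 4.65 and 1.52% in MEF1. Both were called at days 52 and 56. Clcn5, an endosomal chloride and proton exchanger, had 5, 19 and 23.7% in MidK1 and 0, 0 and 1.89% in MEF1, and was called at day 56. The Clcn5 values rest on 20, 42 and 59 reads in MidK1 and 27, 48 and 53 in MEF1, and its call was lost under 4 of 13 settings. Of 8 Clcn5 sites in MEF1, 3, 3 and 4 were not listed in MidK1.

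In 4 called genes a single site carried the value on every day. Plp2, a small membrane proteolipid, had 80.1% (72.8 to 85.9), 87.8% (83.0 to 91.4) and 87.5% (83.0 to 91.0) in MidK1, against 14.3% of 28 reads in MEF1. Tceal3 had 83.9, 87.2 and 78.1% in MidK1 and 14.3% in MEF1, and its close relatives of the Tceal family make the placing of its reads uncertain. These 2 single-site genes were read mainly from the reference allele in each MidK1 library. Ftsj1, an RNA methyltransferase, had 34.8, 43.2 and 25% in MidK1 and 0% of 20 reads in MEF1. It was called at days 35 and 52, and its adjusted p was 0.0572 at day 56 by Fisher's exact test. Against MEF2, which shared 7 Ftsj1 sites with each MidK1 library, it was called each day, with 32.6, 45.5 and 42.7% in MidK1 and 0.513% in MEF2. Chm, an escort protein for the prenylation of Rab proteins, had 11.1, 25.7 and 10.5% in MidK1 and 0% of 22 reads in MEF1, and was called at day 52.

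In called genes the reference reads were more numerous in MidK1 than in MEF1, apart from Bgn, and the variant reads were fewer in some and not in others. Reads were scaled to 100000 at the shared sites of a pair, and ratios were formed where both libraries had at least 3 reads. Of the called genes with a ratio, reference reads were higher in 10 of 11, 15 of 16 and 16 of 17 at days 35, 52 and 56, with median ratios of 19.9, 11.9 and 15.0, where genes not called had medians of 1.56, 1.62 and 2.64. The genes were called for a higher reference share, so this direction is a description. Variant reads were lower in 9 of 13, 11 of 20 and 9 of 22 called genes, with median ratios of 0.878, 0.931 and 1.05, where genes not called had medians of 1.46, 1.49 and 1.54. At day 56 Tfe3 had 89.4 times the reference reads of MEF1 and 1.97 times its variant reads. Uba1 had 13.0 and 0.703 times, and Dynlt3 19.3 and 0.780 times.

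**Figure D4:**
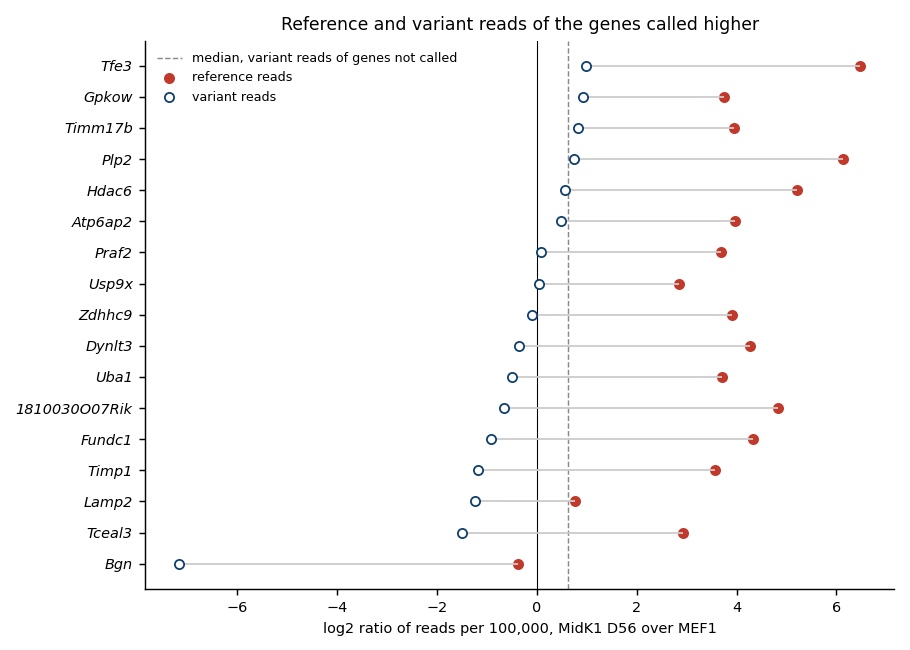
Log2 ratio of reads per 100000 in MidK1 at day 56 over MEF1, for reference reads (filled) and variant reads (open) of the called genes with a ratio. The dashed line marks the median of variant reads in genes not called, 1.54 times. Reference reads lie right of 0 in 16 of 17 genes and variant reads fall on either side of it, with Bgn far to the left.

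These ratios depend on what else was read, and over all tested genes the median coverage ratio was 1.62, 1.53 and 1.70. X-linked genes typical of fibroblasts, a list of 22, had listed sites for 13, 13 and 12 genes in MidK1 and for 20 in MEF1, and took 6554, 7166 and 6567 of each 100000 reads in MidK1 and 57811 in MEF1. At shared sites they had a median coverage ratio of 0.309, 0.280 and 0.411, and were lower in 10 of 12, 11 of 12 and 9 of 11 genes. Bgn, Timp1 and Plp2 of this list were called each day and Lamp2 at days 52 and 56, which is 3 of 12, 4 of 12 and 4 of 11 tested genes, where 8.50, 12.9 and 14.1% of all genes were called. Col4a5, Col4a6, Itm2a, Maged2, Srpx, Srpx2 and Tsc22d3 had sites with 20 reads in MEF1 and none in any MidK1 library, while Gpc3 had such sites in all 3 MidK1 libraries and none in MEF1. Coverage of Plp2 per 100000 reads was 5.90, 10.3 and 11.4 times that of MEF1. The part of remaining fibroblasts in the shares was not tested. Of the blood markers none had a listed site with 20 reads in MidK1 and 1 had in MEF1, Itm2a, which is also on the fibroblast list. Neural markers had 1, 1 and 3 of 9 in MidK1 and 1 in MEF1. The 3 at day 56 were Gprasp1, Sox3 and Syn1, and Syn1 is the gene within which Timp1 lies. Of the germ cell and trophoblast markers, Esx1 and Rhox5 took 717, 1488 and 1221 of 100000 reads in MidK1 and none in MEF1. Rhox5 is also on the pluripotency and germline list, so these reads do not tell the cell type.

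Called genes lay mostly at the start of the chromosome. Of the 24 genes called on any day, 18 lie within its first 30 Mb. There 10 of 32, 14 of 32 and 17 of 32 tested genes were called at days 35, 52 and 56, or 31.2, 43.8 and 53.1%. Beyond 30 Mb, 3 of 121, 6 of 123 and 5 of 124 were called, or 2.48, 4.88 and 4.03%. The median difference was 9.62, 16.2 and 23.4 points in the first 30 Mb and 0.0529, 0.201 and 2.55 points beyond it. Genes there that were not called had medians of 4.62, 4.81 and 8.98 points, against 0, 0.119 and 2.15 beyond. These are descriptions without a test, and neighbouring genes are not independent.

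**Figure D5:**
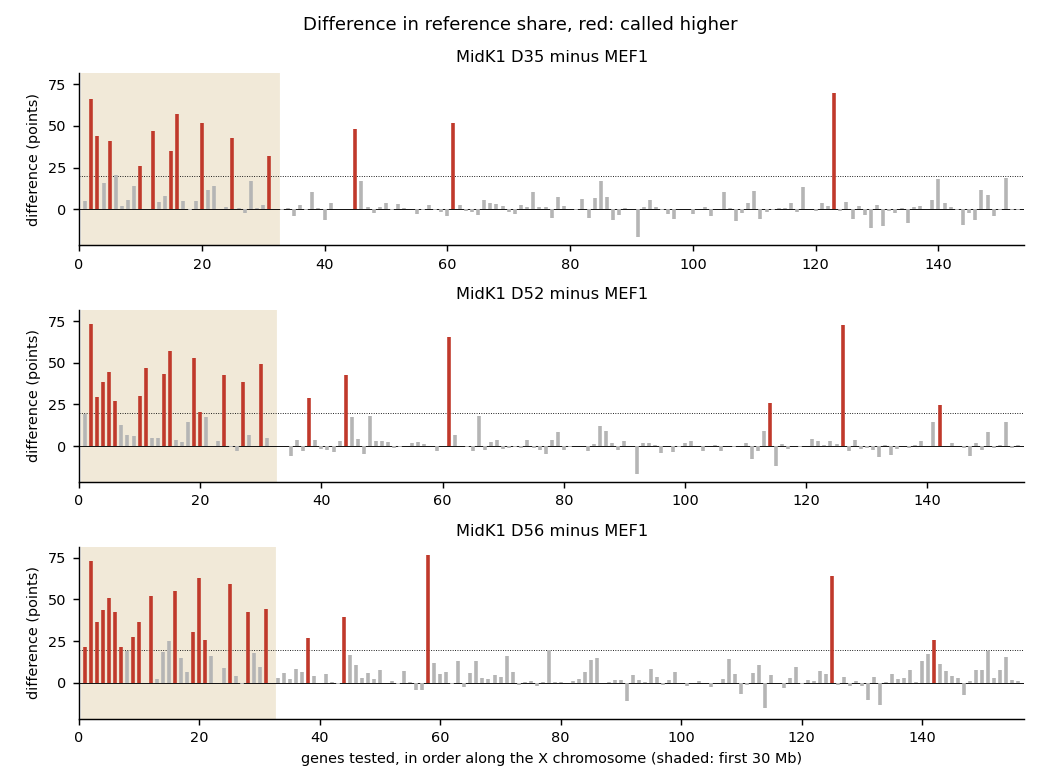
Difference in reference share, MidK1 minus MEF1 (percentage points), of each tested gene in order along the X chromosome, 1 panel per day. Red bars are genes called higher, the dotted line is 20 points, and the first 30 Mb are shaded. Red bars crowd the shaded part, where 10, 14 and 17 of 32 genes were called.

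Within this stretch, a group of neighbours between 7 and 9 Mb stood out, a window drawn after the values were seen. It runs from Clcn5 (X:7153810-7319358) past Tfe3 (X:7762560-7775202) and Hdac6 (X:7930120-7947889) to Ftsj1 (X:8238668-8252406). Of the genes tested there, 6 of 15, 8 of 14 and 10 of 15 were called. In the rest of the first 30 Mb 4 of 17, 6 of 18 and 7 of 17 were called. Not every neighbour was called. Rbm3, a cold-induced RNA-binding protein, had 8.16, 8.45 and 6.15% in MidK1 and 3.66% in MEF1, and Otud5 was called at day 56 alone. The 6 called genes beyond 30 Mb were Lamp2, Zdhhc9, Bgn, Chm, Tceal3 and Acot9.

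Most genes known to escape X inactivation had high reference shares in MEF1 already. Of 7, 7 and 8 tested, 2 were called each day, 1810030O07Rik and Bgn, both with low MEF1 shares. Of all genes 8.50, 12.9 and 14.1% were called. Ddx3x, an RNA helicase, had 51.9% (49.8 to 54.0), 55.4% (53.4 to 57.4) and 54.1% (52.1 to 56.2) in MidK1, against 37.7% in MEF1. Utp14a, needed for ribosome assembly, had 48.0, 48.9 and 48.3% in MidK1 and 31.3% in MEF1. Both were significantly higher, by 14.2, 17.7 and 16.4 points and by 16.7, 17.6 and 17 points, but under the limit of 20. With sites of several gene names left out, Utp14a was called on each day.

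The others on the escape list were not called. Eif2s3x, a subunit of a translation initiation factor, had 40, 42 and 47.3% in MidK1 and 45.2% in MEF1. Pbdc1 had 39.7, 41.0 and 41.3% in MidK1 and 43.7% in MEF1. Kdm5c, a histone H3 lysine demethylase, had 30.2, 37.8 and 37.2% in MidK1 and 38.3, 37.2 and 34.3% in MEF1. The Kdm5c difference at day 35 was −8.06 points, with an interval of −15.7 to −0.231. The adjusted p of these 3 genes was between 0.140 and 1 by Fisher's exact test, which does not show that they were equal. At day 56 the noncoding gene 5530601H04Rik had 40% of 20 reads in MidK1 and 40% of 20 reads in MEF1. The list's median difference was 14.2, 17.6 and 9.65 points, and that of all genes 0.987, 0.623 and 3.88 points.

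Of 26, 27 and 27 housekeeping genes tested, 0, 1 and 3 were called, against 8.50, 12.9 and 14.1% of all genes, namely Uba1 at day 52 and Uba1, Atp6ap2 and Timm17b at day 56. The list medians of 0.918, 0.0807 and 4.43 points stood beside 0.987, 0.623 and 3.88 points over all genes. Without the limit on size 4, 4 and 12 were significantly higher and 0, 2 and 0 lower. Hprt, an enzyme of purine salvage, had 5.01, 4.32 and 7.14% in MidK1 and 0.976% in MEF1. It was significantly higher each day, with adjusted p of 9.24e-04, 0.00378 and 2.13e-06 by Fisher's exact test. The ribosomal protein gene Rps4x, which has processed copies, had 2.40, 5.24 and 9.03% in MidK1 and 2.35% in MEF1. Rps4x was significantly higher at days 52 and 56, with adjusted p of 2.26e-08 and 3.52e-29 by Fisher's exact test. G6pdx, the first enzyme of the pentose phosphate pathway, had 3.61, 0.823 and 3.10% in MidK1 and 2.33, 3.43 and 2.33% in MEF1, and its lower share at day 52 had an adjusted p of 0.0464 by Fisher's exact test. In these genes most reads came from the variant allele in all 4 libraries.

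Rlim, a ubiquitin ligase that promotes Xist expression, was the only tested gene of 12 from the X-inactivation centre. It had 1.50, 1.48 and 2.59% in MidK1 and 4.30% in MEF1 over 28 sites. The differences of −2.80 and −2.82 points at days 35 and 52 were significant, with adjusted p of 4.02e-04 and 4.89e-04 by Fisher's exact test, and that of −1.70 points at day 56 was not (0.0572). Of the 8, 6 and 2 genes with significantly lower shares, others were Tspan6, a tetraspanin, with 0.465% and 0% in MidK1 at days 52 and 56, against 12.4 and 15.3% in MEF1, and Hmgn5, a nucleosome-binding protein, with 1.36, 0.693 and 1.55% in MidK1 and 8.20% in MEF1. Sh3bgrl, on the fibroblast list, had 4.22, 3.52 and 5.18% in MidK1 and 6.28, 6.31 and 6.31% in MEF1. At day 35 its median site had 2.51% in MidK1 and 5.25% in MEF1, and its highest 74.1 and 77.5%. In all of these genes the variant allele gave most reads in every library. Over all sites with 20 reads, the median variant share was 96.2% in MEF1 and 99.3% in MEF2, a table with lower caller limits. Whether the small falls of Rlim and Sh3bgrl from MEF1 hold against MEF2 is not given here.

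The best covered genes without a call showed a similar range. Gm14681, annotated as a processed pseudogene whose reads may come from its parent gene, had 0.633, 0.546 and 0.603% in MidK1 and 0.702% in MEF1, over 12647, 12810 and 11611 reads in MidK1. Wbp5, a small protein of the Tceal family, had 14.8, 13.7 and 18.0% in MidK1 and 10.8% in MEF1, and shares the doubt over its relatives. At day 35 its median site had 5.91% in MidK1 and 5.40% in MEF1, and its highest 44.6 and 46.5%. Maged1, a MAGE family protein, had 10.7, 5.30 and 10.4% in MidK1 and 4.06% in MEF1. Values just under the limit at day 56 were 19.5 points for Vbp1, 19.1 for Zrsr2 and 19.1 for Pqbp1, and just over it were 21.7 points for Otud5 and 21.8 for Clcn5.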

How the data were processed

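Libraries were stranded and poly(A)-selected (NEBNext kits, 500 ng of ISOGEN-extracted RNA), per the labels' protocols, and were read as 76-base pairs on a NextSeq500. Variants were called by the authors in CLC Genomics Workbench (Basic Variant Call), per the series' design text. The submitters' processing notes name build mm10. Aligner, caller settings and read filters were not given in the sources used here. The deposited tables hold, per the file headers, the count of reads with each variant and the count of covering reads, neither normalised, and their ratio as a percent.

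Single-base variants with at least 20 reads in both tables of a pair were used, with the allele of most reads where a position listed several, which dropped 3, 4 and 5 alleles in MidK1 and 1 in MEF1. Sites took the gene name in the tables. Of 10101 named positions 655 had several names, and 373 of these went to the one gene whose exon covers the site in GENCODE M21, an annotation of the same build. Variant and other reads were summed per gene and compared by Fisher's exact test (two-sided), and p-values were adjusted by Benjamini-Hochberg over all genes of a pair, in Python 3.11.15 with scipy 1.17.1 and pandas 2.3.3. The steps were tested on simulated data. Coverage sums were 139148 to 145784 reads in MidK1 and 150198 in MEF1. The median site had 36 or 37 reads, so single sites are imprecise.

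Genes with values in full are the 12 called on any day with most reads and at least 2 shared sites each day. Sequences are shown for the first 6 of these with a coding site in all 4 libraries. Of the genes not called, the 10 with most reads and the members of gene lists were considered, and the text names those that show the range. Rbm3, Tspan6, Hmgn5, Vbp1, Zrsr2 and Pqbp1 were named after their values were seen. The libraries and gene lists were chosen with earlier results of these data known. Alternatives covered the coverage minimum, the limit on size, single sites, the weighting of sites, the fibroblast library and the naming of sites.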

Additional observations from a re-analysis of the deposited data

Results flagged for a closer look

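Insertions, deletions and longer variants were outside the comparisons above. At those shared with MEF1 in the called genes, the reference share was 68.4% (64.4 to 72.1), 56.3% (53.0 to 59.5) and 58.4% (55.2 to 61.6) in MidK1 on days 35, 52 and 56, against 14, 13.8 and 13.8% in MEF1. These values rest on 9, 17 and 19 sites in 5, 7 and 10 genes. In the other genes such variants had 32.8, 33.0 and 34.5% in MidK1, against 25.8, 26.4 and 26.2% in MEF1, over 115, 108 and 112 sites. They drew attention because the MidK1 intervals lay above those of MEF1 in data not used for the calls. The genes were called from the same libraries, so this is not independent of the calls. No test was made. In MEF1 the median site of this kind in the other genes had 23.1, 23.7 and 23.4%. The median gene had 3.52, 3.69 and 3.68% at single-base sites in MEF1. The shares of the longer variants are thus not on the same scale as those of single-base sites.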

How the results depend on the processing

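Of 13 other settings, most left the counts of 13, 20 and 22 called genes within 1.5 times. With at least 50 reads per site 4 of 62, 4 of 65 and 9 of 64 genes were called at days 35, 52 and 56, since 9, 14 and 14 of the called genes were no longer measured. With a limit of 10 points 25, 31 and 42 genes were called, 1 of them lower at days 52 and 56 each (Tspan6). With a limit of 30 points 13 genes were called at day 52. With at least 10 reads 1 gene of 234, 1110012L19Rik, was called lower at day 35. With sites that had a reference share of 10% or more in another library the median difference over all genes was 2.23, 2.28 and 6.72 points. No called gene turned its direction under these settings. Calls at day 52 of Acot9, Chm and Usp9x were lost with the single best site, and those of Chm, Gpkow and Gripap1 with reads divided by sites. Clcn5 at day 56 was lost under both. Chm has a single site, so its reads were the same under these settings and only the adjustment of p over all genes moved. No paired analysis was possible because each MidK1 day is 1 library and all share MEF1. Counts rest on reads of single libraries, whose spread between cultures was not measured here. Leaving out a library would leave no comparison.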
